A study of Mus musculus with 6 samples.

Results

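The phagocyte NADPH oxidase is the enzyme that makes superoxide, and 6 genes of the complex and its Rac switch were chosen by name: *Cybb*, *Cyba*, *Ncf1*, *Ncf4*, *Rac1* and *Rac2*. All probes annotated to these genes were taken, which gave 6 probes for 5 of the 6 genes, out of the 19750 probes and 10553 named genes tested. *Ncf1* had 2 probes and the other 4 genes had 1 each. *Cybb*, the catalytic subunit gp91phox, had no probe under its name in the probe annotation and is not analysed here. The values come from LSK cells, the lineage-negative Sca-1+ c-Kit+ fraction of bone marrow that holds hematopoietic stem cells and multipotent progenitors. The PU.1-deficient genotype was *Spi1* fl/fl MxCre+ and the wild-type genotype *Spi1* +/+ MxCre+, with 3 pools of cells each, all from mice on a C57BL/6 background aged 6 to 12 weeks. Both genotypes carried the MxCre transgene and both received 2 injections of polyIC, 3 days apart, at 5 µg per g of body weight, and cells were sorted on day 14 after the first. PolyIC induces the Mx promoter through interferon in many cell types of the animal, so the deletion was not restricted to LSK cells, and each pool mixed the cells of several mice.

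In resting phagocytes the oxidase is held apart in 2 places. A heterodimer of gp91phox and p22phox, the product of *Cyba*, sits in the membrane, while p47phox (*Ncf1*) and p40phox (*Ncf4*) are among the subunits that wait in the cytosol. On stimulation, kinases phosphorylate p47phox, the cytosolic subunits move to the membrane, and a Rac GTPase in its GTP-bound state completes the active enzyme. Rac2 is largely restricted to blood cells and is the main Rac of the mouse neutrophil oxidase, whereas Rac1 is found in nearly all cells. PU.1, the product of *Spi1*, is an ETS family transcription factor known to act on several of these genes in myeloid cells.

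Promoters of *Ncf1* and *Cyba*, the called members that the RefSeq promoter table (GRCm38.p6) holds, are shown because ETS factors bind around the letters GGAA. Each runs 5′ to 3′ along the gene, from 250 bases before to 50 bases after the annotated start, with every GGAA on either strand in capitals (TTCC on the strand shown).
Ncf1, chr5:134229576-134229875, minus strand: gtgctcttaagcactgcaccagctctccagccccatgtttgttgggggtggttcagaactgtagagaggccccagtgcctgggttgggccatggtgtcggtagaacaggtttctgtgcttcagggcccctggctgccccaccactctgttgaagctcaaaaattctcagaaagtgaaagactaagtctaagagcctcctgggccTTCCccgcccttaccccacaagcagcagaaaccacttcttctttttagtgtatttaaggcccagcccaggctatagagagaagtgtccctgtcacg
Cyba, chr8:122432891-122433190, minus strand: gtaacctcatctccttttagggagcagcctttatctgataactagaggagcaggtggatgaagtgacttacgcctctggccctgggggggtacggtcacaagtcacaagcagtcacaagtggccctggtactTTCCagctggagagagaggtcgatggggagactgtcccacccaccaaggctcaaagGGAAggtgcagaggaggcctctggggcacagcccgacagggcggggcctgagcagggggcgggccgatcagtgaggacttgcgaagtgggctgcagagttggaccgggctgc
The *Ncf1* window held 1 GGAA, on the opposite strand at -46 to -43 from the start. The *Cyba* window held 2, at -62 to -59 on the gene's strand and at -118 to -115 on the other. Of 32851 promoter windows of this length, 96% held GGAA on at least 1 strand. The longer PU.1-type letters GAGGAA, which contain GGAA, were in neither of these 2 windows and in 28.3% of all windows. The still longer GAGGAAGT was in neither and in 3.2% of all windows. The promoter window of *Cybb*, the member with no probe, held 4 GGAA and 1 GAGGAA. That GAGGAA lay at 10 to 15 from the start, on the opposite strand. A match of letters is a description and not a binding site.

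*Spi1* itself marked the genotypes. Its 1 probe gave log2 intensities of 6.62, 5.80 and 6.00 in PU.1-deficient pools 1, 2 and 3, against 8.54, 8.51 and 8.69 in wild-type pools 1, 2 and 3. The log2 fold change was -2.44 (SE 0.24, adjusted p = 0.00137 from limma), and the probe was still detected in all PU.1-deficient pools. The arrays differed in brightness, with 15639 to 17978 probes detected (detection p under 0.05) in PU.1-deficient pools and 17680 to 18174 in wild-type pools, and PU.1-deficient pool 2 was the dimmest, at a mean deposited intensity of 262.8 within a range of 262.8 to 451.2. The genotypes also differed in *Xist*, the noncoding RNA that silences an X chromosome in females, whose 4 probes were each seen in all PU.1-deficient pools, while wild-type pools detected 3 of them in 0 of 3 pools and the other in 1 of 3. The sex of the pooled mice and the genotype therefore cannot be told apart. Among all 19750 probes, 1090 were higher and 881 lower in PU.1-deficient LSK cells at an adjusted p under 0.05 (9.98% in either direction), and the median log2 fold change was -0.04. When each array was instead scaled to an equal median, that median was -0.24, 520 probes passed as higher and 866 as lower, and the higher share of called probes was 37.5%, against 55.3% with the quantile-normalized values.

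Of the 6 member probes, PU.1-deficient LSK cells had 4 higher and 0 lower, where 5.52% of all probes were called higher. These were the single probes of *Ncf4*, *Cyba* and *Rac2* and 1 of the 2 probes of *Ncf1*. The pools of the genotypes did not overlap for 5 of the 6 probes, with PU.1-deficient pools higher, as for 13.8% of all probes. All 6 pools detected 5 of the 6 probes. In a bulk sample a change in the share of cells of one type and a change in RNA per cell cannot be told apart. Each value is a log2 intensity after the authors' background correction and quantile normalization, on which a difference of 1 is a fold change of 2.

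**Figure D1:**
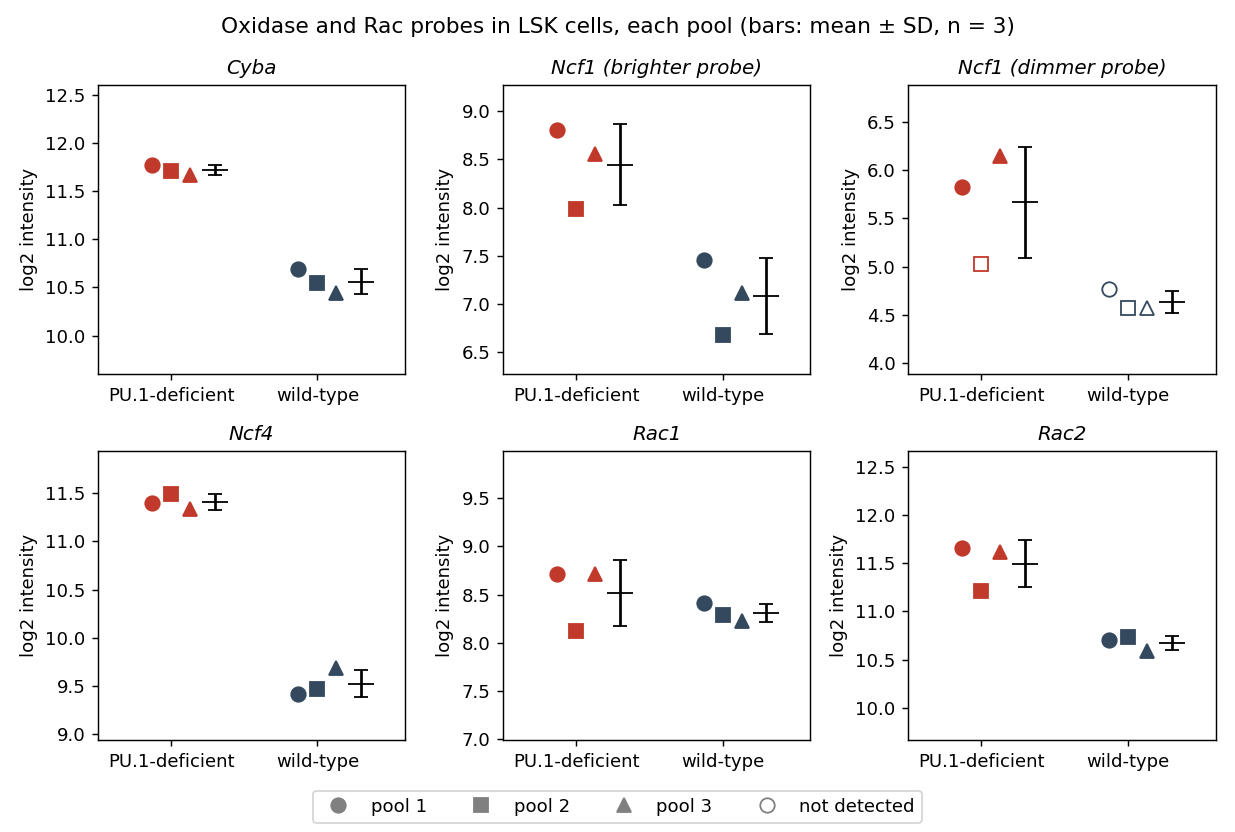
Log2 intensity of each member probe in the 3 PU.1-deficient pools (left, red) and the 3 wild-type pools (right, dark blue), with the mean and SD of each genotype as black bars; each panel spans 3 log2 units, and open symbols are pools in which the probe was not detected. *Ncf4*, *Cyba*, *Rac2* and both *Ncf1* probes show no overlap of the genotypes, and the pools overlap for *Rac1*.

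Among the cytosolic subunits, *Ncf4* had the largest difference of the members. This gene encodes p40phox, which binds phosphatidylinositol 3-phosphate on phagosomes. *Ncf4* gave 11.40, 11.50 and 11.33 in PU.1-deficient pools 1, 2 and 3, against 9.42, 9.47 and 9.69 in wild-type pools 1, 2 and 3. The means were 11.41 ± 0.08 and 9.53 ± 0.14 (SD, n = 3 each). The lowest PU.1-deficient pool lay well above the highest wild-type pool, and the log2 fold change was 1.88 (SE 0.16, 95% CI 1.5 to 2.27, 3.69-fold, adjusted p = 0.000848 from limma). The deposited intensities, before any correction, already separated for *Ncf4*, at 1995.8 to 2976.4 in PU.1-deficient pools and 731.8 to 1046.4 in wild-type pools. The call for *Ncf4* held in 16 of 16 alternatives, at log2 fold changes of 1.72 to 1.97.

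*Ncf1* encodes p47phox, the organizer that carries the cytosolic complex to the membrane once phosphorylated. The probe ILMN_2829457 gave 8.80, 7.98 and 8.55 in PU.1-deficient pools 1, 2 and 3, against 7.46, 6.68 and 7.11 in wild-type pools 1, 2 and 3. The genotypes did not overlap, but the spread within each was wider than for *Ncf4*, with means of 8.44 ± 0.42 and 7.08 ± 0.39 (SD, n = 3 each). The log2 fold change of *Ncf1* was 1.36 (SE 0.29, 95% CI 0.68 to 2.04, 2.57-fold, adjusted p = 0.0275 from limma). On the deposited intensities this *Ncf1* probe did overlap, since PU.1-deficient pool 2, the dimmest array, read 199.3, within the wild-type range of 181.5 to 312.7. The adjusted p was 0.0977 without PU.1-deficient pool 1, 0.104 without PU.1-deficient pool 3, 0.103 without wild-type pool 2 and 0.101 without wild-type pool 3, 0.213 with the arrays scaled to equal medians and 0.0638 with no filter on dim probes. These 4 single-pool losses left the *Ncf1* log2 fold change at 1.16 to 1.38.

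The other *Ncf1* probe, ILMN_1228585, lay near the background of the arrays. It gave 5.83, 5.03 and 6.15 in PU.1-deficient pools 1, 2 and 3, against 4.76, 4.57 and 4.57 in wild-type pools 1, 2 and 3. Only PU.1-deficient pools 1 and 3 detected it, and 0 of 3 wild-type pools did, so that its wild-type level is a bound. By that bound, on the background-corrected values, *Ncf1* was at least 1.61-fold higher on this probe in PU.1-deficient cells. The mean of the PU.1-deficient pools, undetected pool 2 included, was set against the lowest signal of a detected probe on each wild-type array. The bound does not carry over to values without that correction. The fitted difference of this probe did not pass the test (log2 fold change 1.03, SE 0.29, adjusted p = 0.0764 from limma). Without PU.1-deficient pool 2, which did not detect it, the adjusted p was 0.0104. The probe was past 0.05 in only 3 of 15 alternatives. Its adjusted p reached 0.229 with another pool left out. Without background correction its log2 fold change was 0.37 (adjusted p = 0.111). The pools thus stood in the same order of genotypes on both *Ncf1* probes, with 1 of the 2 past the threshold.

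*Cyba*, the membrane member, encodes p22phox, the partner that stabilizes gp91phox and docks p47phox. *Cyba* gave 11.77, 11.71 and 11.67 in PU.1-deficient pools 1, 2 and 3, against 10.70, 10.55 and 10.44 in wild-type pools 1, 2 and 3. The means were 11.72 ± 0.05 and 10.56 ± 0.13 (SD, n = 3 each). The PU.1-deficient pools lay within a narrow band above every wild-type pool, and the log2 fold change was 1.15 (SE 0.16, 95% CI 0.78 to 1.53, 2.23-fold, adjusted p = 0.00498 from limma). The deposited intensities of *Cyba* did not overlap either, at 2310.3 to 3716.5 in PU.1-deficient pools and 1167.9 to 2080.6 in wild-type pools. Leaving out any 1 pool kept the *Cyba* call, with adjusted p up to 0.0362, whereas scaling to equal medians gave a log2 fold change of 1.00 and an adjusted p of 0.0709.

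The Rac GTPases gave unequal values. *Rac2*, the Rac of blood cells, read 11.65, 11.21 and 11.61 in PU.1-deficient pools 1, 2 and 3, against 10.71, 10.73 and 10.59 in wild-type pools 1, 2 and 3. The lowest PU.1-deficient pool, pool 2, was above every wild-type pool, and *Rac2* had a log2 fold change of 0.82 (SE 0.18, 95% CI 0.39 to 1.25, 1.76-fold, adjusted p = 0.0343 from limma). On the deposited intensities *Rac2* overlapped, with 1580.9 in PU.1-deficient pool 2 and 1291.9 to 2309.1 in wild-type pools. The *Rac2* call was lost without any 1 pool other than PU.1-deficient pool 2: the adjusted p was 0.126 without PU.1-deficient pool 1, 0.127 without PU.1-deficient pool 3, and 0.0587, 0.12 and 0.15 without wild-type pools 1, 2 and 3. With scaling to equal medians it was 0.313, at a *Rac2* log2 fold change of 0.65.

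*Rac1*, the ubiquitous paralog, gave 8.71, 8.13 and 8.71 in PU.1-deficient pools 1, 2 and 3, against 8.41, 8.29 and 8.23 in wild-type pools 1, 2 and 3. The genotypes overlapped, because PU.1-deficient pool 2 was the lowest of all 6 while the other PU.1-deficient pools were the highest. The *Rac1* difference did not pass the test (log2 fold change 0.21, SE 0.21, 95% CI -0.29 to 0.71, adjusted p = 0.646 from limma), with an interval that reaches 0.71. Scaling to equal medians turned the *Rac1* value to -0.13, whereas array weights, which count some arrays more than others, gave 0.43 and an adjusted p of 0.0187. The *Rac2* minus *Rac1* difference within each pool removes what an array adds equally to both probes. It was 2.94, 3.09 and 2.90 in PU.1-deficient pools 1, 2 and 3, against 2.30, 2.45 and 2.36 in wild-type pools 1, 2 and 3. These 2 sets did not overlap, pool 2 included, and differed by 0.61 on the log2 scale. The exact two-sided permutation test gave p = 0.1, the smallest that this test can give with 3 pools against 3.

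The members did not vary in step within a genotype. PU.1-deficient pool 2 was the lowest PU.1-deficient pool for *Rac1*, *Rac2* and both *Ncf1* probes and the highest for *Ncf4*. For deviations from the genotype means over the 6 pools, r was 0.97 between *Rac2* and *Rac1*, 0.90 between *Rac2* and the *Ncf1* probe ILMN_1228585, and -0.35 to -0.70 between *Ncf4* and the other member probes. These are descriptions over 6 arrays that share brightness and normalization, and they carry no test.

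**Figure D2:**
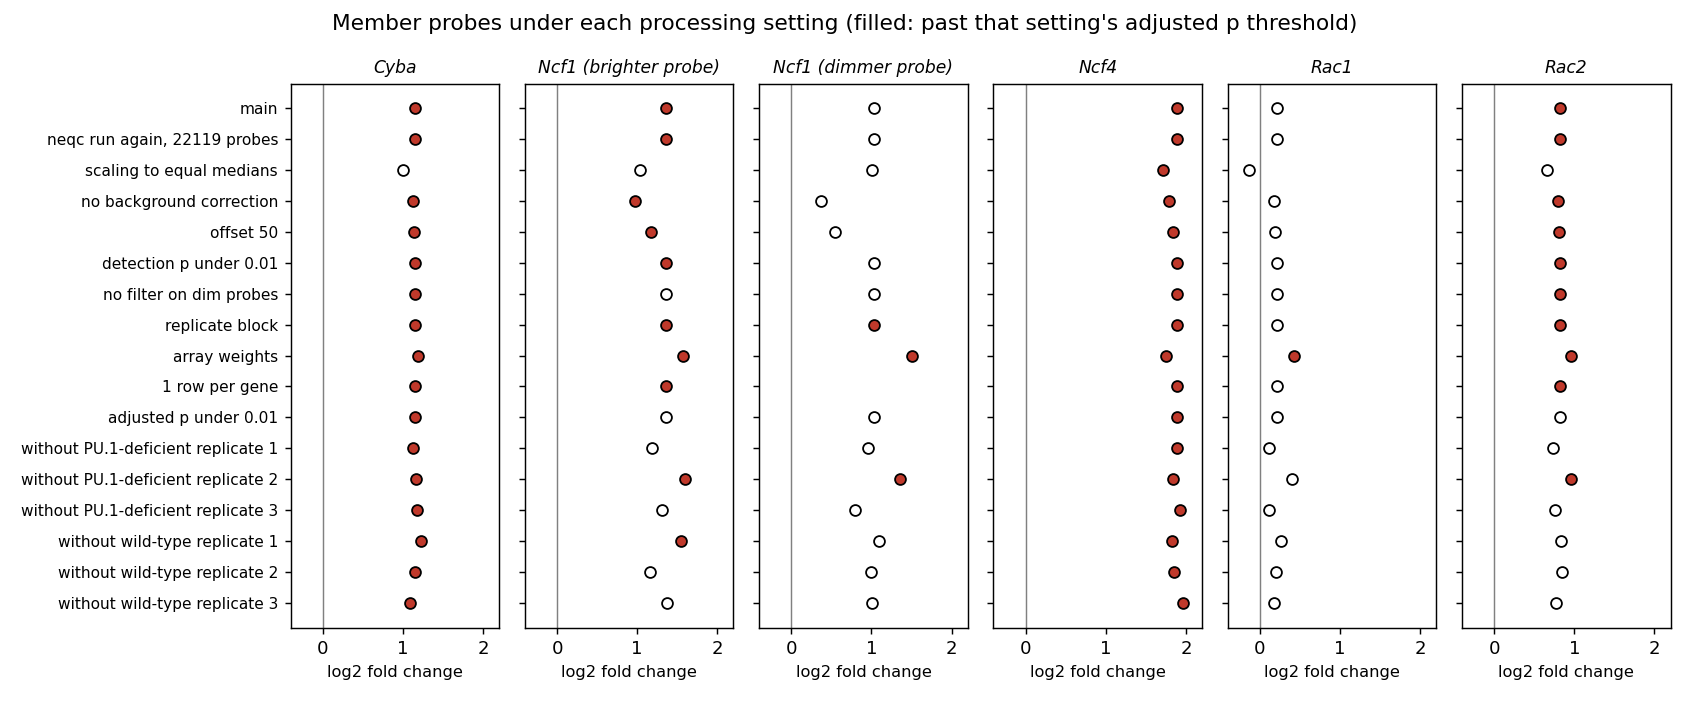
Log2 fold change (PU.1-deficient minus wild-type, horizontal axes) of each member probe under the reported setting (main, top) and each alternative, including each pool left out in turn; filled points are past the adjusted p threshold of that setting (0.05, or 0.01 where named). *Ncf4* is filled throughout, *Cyba* is open only with scaling to equal medians, and *Ncf1* and *Rac2* are open in several alternatives.

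The 5 lists of other genes of the pathway held 57 measured genes, of which 12 were higher and 3 lower in PU.1-deficient LSK cells, where 6.69% of all named genes were higher and 5.72% lower. The median log2 fold change over these 57 genes was 0.12, against 1.15 over the 5 measured members and -0.04 over all named genes. A gene with more than 1 probe is represented by its brightest one, by the mean of the 6 pools. With scaling to equal medians, 7 of these genes were higher and 4 lower, and the median of 3 of the 5 lists was below 0, against 1 of 5 with the quantile-normalized values.

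**Figure D3:**
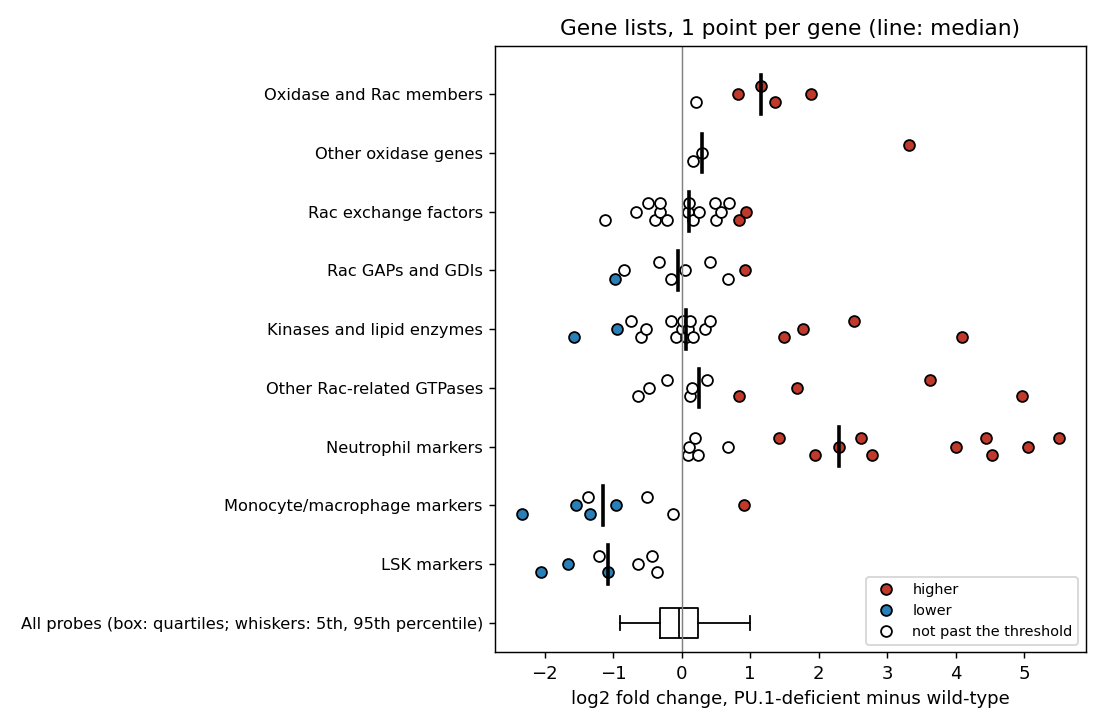
Log2 fold change (PU.1-deficient minus wild-type) of each measured gene of the members, the pathway lists and the neutrophil, monocyte/macrophage and LSK marker lists. Each gene is 1 point and the list's median is a line, above a box plot of all 19750 probes. The lineage, B cell and erythroid marker lists are not plotted. The members lie between 0.21 and 1.88, whereas the pathway lists scatter around 0 with a few genes far to the right.

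Of the other oxidase genes, 3 of 13 were measured. *Hvcn1*, the voltage-gated proton channel that balances the charge carried by the oxidase, gave 11.27, 11.10 and 11.16 in PU.1-deficient pools 1, 2 and 3, against 8.08, 7.56 and 7.92 in wild-type pools 1, 2 and 3. The *Hvcn1* log2 fold change was 3.33 (SE 0.19, adjusted p = 0.000162 from limma), and its other probe gave 3.63, both larger than the value of any member. *Cybc1*, which encodes a chaperone needed for gp91phox and p22phox protein, had overlapping pools and a log2 fold change of 0.30 (adjusted p = 0.515 from limma).

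Exchange factors load Rac with GTP, and 2 of the 17 measured were higher and 0 lower on their brightest probes. These were *Tiam1*, at a log2 fold change of 0.84 (adjusted p = 0.0198 from limma), and *Dock5*, at 0.94 (adjusted p = 0.0118). Both calls were lost without wild-type pool 2 or wild-type pool 3 and with scaling to equal medians, and *Tiam1* also without PU.1-deficient pool 1 or pool 3 (adjusted p for *Tiam1* 0.0701 to 0.104 and for *Dock5* 0.069 and 0.0697 without 1 of these pools). The dimmer *Dock5* probe gave 0.32 (adjusted p = 0.553). Of the 12 probes of *Elmo1*, also on this list and named after its values were seen, 1 dimmer probe was called lower (-0.72, adjusted p = 0.0283). Its mean log2 intensities were 5.65 in PU.1-deficient and 6.38 in wild-type pools. The brightest *Elmo1* probe gave -0.22 (adjusted p = 0.576), and all 12 had values below 0. *Vav1* and *Prex1*, exchange factors of the neutrophil oxidase, gave 0.26 and -0.39 (adjusted p = 0.582 and 0.223). *Dock2*, the main exchange factor of neutrophil migration, gave 6.46, 7.06 and 6.71 in PU.1-deficient pools 1, 2 and 3, against 6.54, 7.67 and 8.03 in wild-type pools 1, 2 and 3. The low *Dock2* value of wild-type pool 1 overlapped the PU.1-deficient pools, and the adjusted p was 0.381 with this pool and 0.0374 without it, at log2 fold changes of -0.67 and -1.11.

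Of 8 measured genes that hold Rac inactive, 1 was higher and 1 lower. *Arhgdib*, the blood-cell GDP-dissociation inhibitor that keeps Rac in the cytosol, gave 13.94, 13.89 and 13.92 in PU.1-deficient pools 1, 2 and 3, against 12.94, 13.09 and 12.92 in wild-type pools 1, 2 and 3. Its log2 fold change was 0.93 (SE 0.15, adjusted p = 0.0102 from limma), and its other probe gave 1.57 with wider spread (adjusted p = 0.0878). The *Arhgdib* adjusted p was 0.0646 without wild-type pool 3 and 0.0826 with scaling to equal medians. *Chn2*, which encodes the Rac GTPase-activating protein beta-chimaerin, had a log2 fold change of -0.98 (adjusted p = 0.0181 from limma), and its adjusted p was 0.0745 without PU.1-deficient pool 1, 0.0926 without wild-type pool 2 and 0.0948 without wild-type pool 3.

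Among kinases and lipid enzymes that act in oxidase activation, 4 of 19 measured genes were higher and 2 lower. *Prkcb*, a protein kinase C isoform that phosphorylates p47phox, gave 10.54, 9.995 and 10.39 in PU.1-deficient pools 1, 2 and 3, against 6.57, 6.32 and 5.75 in wild-type pools 1, 2 and 3. All 3 probes of *Prkcb* were called, and this one had a log2 fold change of 4.09 (SE 0.26, adjusted p = 0.000247 from limma). *Prkcz*, an atypical protein kinase C, had 3 probes, each detected in every PU.1-deficient pool and in 0 of 3 wild-type pools. By these probes, on the background-corrected values, *Prkcz* was at least 2.37-fold to at least 4.15-fold higher. The fitted log2 fold change of the brightest *Prkcz* probe was 2.52, against 1.11 without background correction. *Pik3cb*, the beta catalytic subunit of phosphoinositide 3-kinase, and *Pld1*, a phospholipase D, had log2 fold changes of 1.78 and 1.5 (adjusted p = 0.00186 and 0.00393), and *Pld1* had an adjusted p of 0.0705 with scaling to equal medians. *Prkcd*, another kinase of p47phox, gave 0.02 (adjusted p = 0.977), a value whose sign turned under several alternatives, scaling included.

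The 2 lower genes of that list were *Btk* and *Pik3cg*, and *Pik3cg* is named after its value was seen. *Btk*, a tyrosine kinase of B cells and myeloid cells, gave 9.03, 9.77 and 9.65 in PU.1-deficient pools 1, 2 and 3, against 10.88, 11.08 and 11.20 in wild-type pools 1, 2 and 3 (log2 fold change -1.57, SE 0.24, adjusted p = 0.00723 from limma). *Pik3cg*, the gamma subunit that chemoattractant receptors activate, had a log2 fold change of -0.95 (adjusted p = 0.0349 from limma), a call that was lost on leaving out PU.1-deficient pool 1, PU.1-deficient pool 3, wild-type pool 2 or wild-type pool 3, with adjusted p between 0.104 and 0.15, and with no filter on dim probes (0.0521). *Rap1a* had no probe under its name in the annotation.

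Of 10 other measured small GTPases related to Rac, 4 were higher and 0 lower. *Rhoj*, a Cdc42-related GTPase known from endothelium, gave 8.998, 9.28 and 8.92 in PU.1-deficient pools 1, 2 and 3, against 5.48, 5.51 and 5.34 in wild-type pools 1, 2 and 3 (log2 fold change 3.62, adjusted p = 0.000105 from limma). The wild-type values of *Rhoj* lay near the lowest signal of a detected probe on those arrays (4.95 to 5.00). Without background correction its log2 fold change was 2.26. *Rhou*, an atypical Cdc42-like GTPase, gave 10.20, 9.34 and 9.94 in PU.1-deficient pools 1, 2 and 3, while 0 of 3 wild-type pools detected it. This put *Rhou* at least 28.8-fold higher. *Rhob* and *Rhog*, a GTPase of endosomes and a close relative of Rac, had log2 fold changes of 1.69 and 0.84 (adjusted p = 0.00219 and 0.0464), and *Rhog* lost its call when PU.1-deficient pool 1, PU.1-deficient pool 3, wild-type pool 2 or wild-type pool 3 was left out (adjusted p between 0.145 and 0.188), under scaling to equal medians (0.372) and with no filter on dim probes (0.0608). *Cdc42* gave 0.12 (adjusted p = 0.774), turning to -0.07 with scaling to equal medians. *Rhoh*, a GTPase-deficient relative of Rac in blood cells, had no PU.1-deficient pool and only 1 of 3 wild-type pools with detection, and no call (adjusted p = 0.532).

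**Figure D4:**
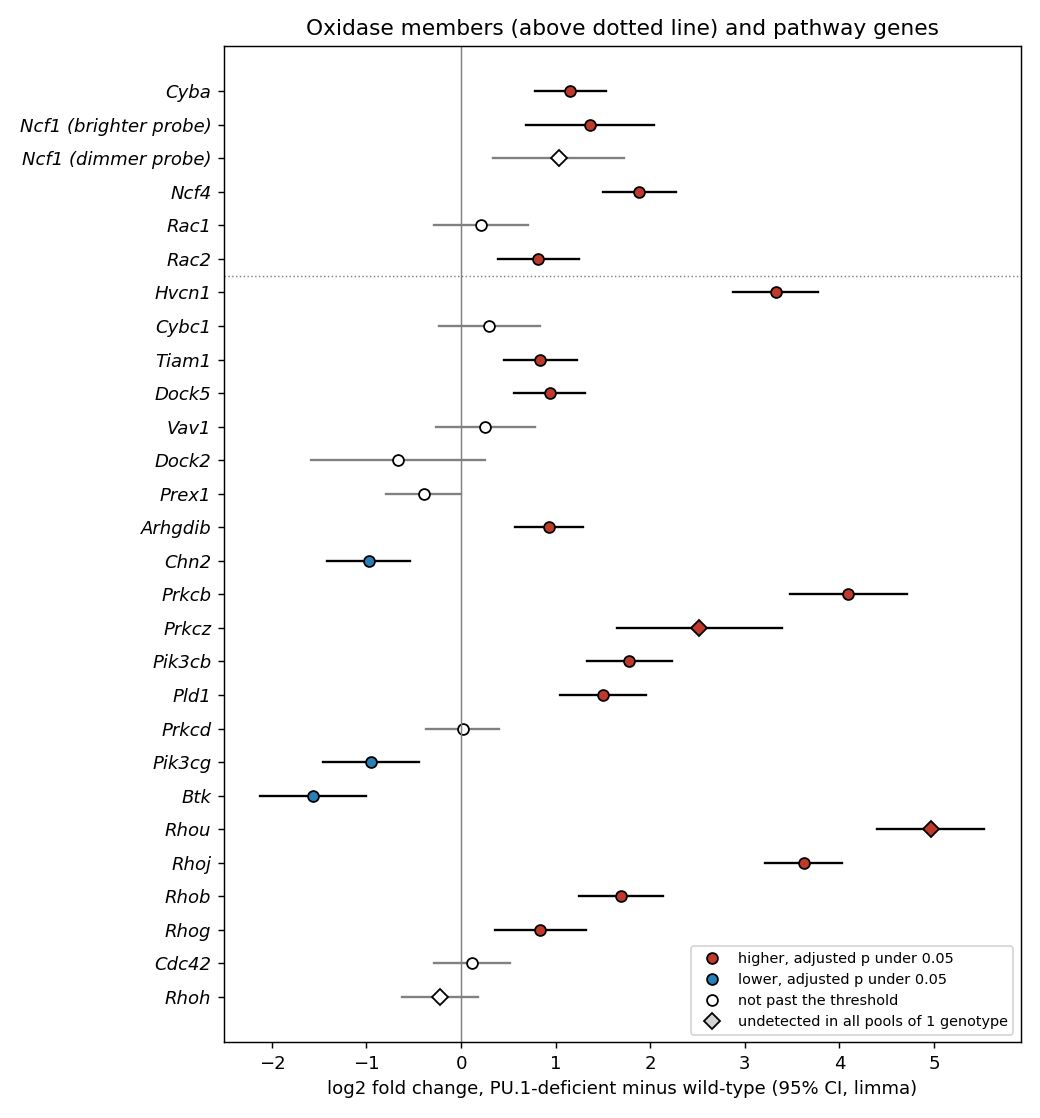
Log2 fold change (PU.1-deficient minus wild-type) with its 95% confidence interval from limma for the member probes (above the dotted line) and the named pathway genes. Diamonds mark probes that 0 of 3 pools of 1 genotype detected, whose plotted value rests on background signal there; *Prkcb*, *Prkcz*, *Hvcn1*, *Rhoj* and *Rhou* lie to the right of all members.

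Markers of other cells moved with the genotype beside these values. Beside the marker counts given here and in the next paragraph, 6.69% of all named genes were higher and 5.72% lower. Of 19 neutrophil granule and maturation markers, 15 were measured, 10 were higher and 0 lower in PU.1-deficient LSK cells, with a median log2 fold change of 2.29. Their summed linear level was 164163 to 178207 in PU.1-deficient pools and 34607 to 62127 in wild-type pools. The brightest of them, *Mpo*, encodes the peroxidase of primary granules. Its brightest probe had a log2 fold change of 0.09 (adjusted p = 0.83 from limma). Of its other probes, ILMN_2925094 was called higher, at 1.78 (adjusted p = 0.0282). ILMN_2719256 at 2.25 and ILMN_2600421 at 0.12 were not called (adjusted p = 0.249 and 0.776). The primary granule proteases *Ctsg* and *Prtn3* had 1.94 and 1.42 (adjusted p = 0.026 and 0.0298), and each lost its call without 1 of several pools (adjusted p up to 0.0969 for *Ctsg* and up to 0.122 for *Prtn3*). *Ngp*, a secondary granule gene, had the largest value at 5.51, and *S100a9*, a calprotectin subunit, had 2.77. On their brightest probes 5 genes of the list did not pass, and these are named after their values were seen. They were *Mpo*, *Ltf* (0.10), *Mmp9* (0.19), *Cxcr2* (0.24) and *Csf3r* (0.67), of which *Ltf* is also a secondary granule gene. With scaling to equal medians *Ltf* turned to -0.20 and *Mmp9* to -0.07. *Ly6g* and *Itgam*, which define mature neutrophils at the surface, were not measured here. Of 15 monocyte and macrophage markers, 8 were measured, with 1 higher and 4 lower and a median log2 fold change of -1.15. *Lyz2*, the lysozyme gene that neutrophils also express, was the higher one, at 0.91 (adjusted p = 0.025 from limma), a call lost with scaling to equal medians and without any 1 pool other than PU.1-deficient pool 2 (adjusted p up to 0.0977). The other 7 all had values below 0, among them *Csf1r* at -2.33 and *Irf8* at -1.34, which passed the test, and *F13a1* at -1.37 (adjusted p = 0.0925). *Csf1r* did not pass without wild-type pool 3 (adjusted p = 0.0523), nor did *Irf8* without PU.1-deficient pool 1, PU.1-deficient pool 3 or wild-type pool 3 (up to 0.0979). The summed level of the list was 3847 to 4836 in PU.1-deficient pools and 3251 to 4165 in wild-type pools, but without *Lyz2* it was 643.0 to 714.2 in PU.1-deficient pools and 1119 to 2444 in wild-type pools. *Klf4*, *Adgre1* and *Ms4a6c* of that list were undetected in all PU.1-deficient pools. The part of neutrophil or monocyte markers in the oxidase values was not tested.

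The list of markers of the LSK gate and of stem or multipotent progenitor cells gave the opposite direction. Of its 7 measured genes, 0 were higher and 3 lower. The summed level of the list was 5988 to 6735 in PU.1-deficient pools and 10860 to 13358 in wild-type pools. *Kit*, the gated receptor, was detected in all pools and was not called (log2 fold change -0.44, adjusted p = 0.202 from limma). The 3 lower genes, none of which defines the gate, included *Cd34* and *Meis1* (-1.66 and -2.05). *Ly6a*, which encodes Sca-1, was not measured here. Of 8 genes listed for the depleted lineage markers 1 was measured, *Ptprc* (-0.98, adjusted p = 0.0577). The depletion antibody was to B220, a form of the *Ptprc* product, and the probe is annotated only to the gene. The *Ptprc* value therefore does not show how many lineage-positive cells were left. Of B cell markers 3 of 7 were measured, with 1 lower (*Cd79b*, -1.41). Of erythroid markers 6 of 8 were measured, with 5 lower, the most changed being *Car1* (-4.56). *Ptprc* passed without wild-type pool 1 (adjusted p = 0.0279) and with scaling to equal medians (0.0363).

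The 5 named probes whose values over the 6 pools were most like those of *Ncf4*, by Pearson's r, were *Lrp4* (0.9995), *S100a9* (0.9987), *Plin3* (0.9986), *Plekhg3* (0.9986) and *Arl11* (0.9985). The 6 pools fall into 2 genotype groups, so any probe that separates the genotypes correlates with *Ncf4*, and r is given as a description with no test. *Lrp4* gave 7.60 ± 0.12 in PU.1-deficient pools and 5.72 ± 0.17 in wild-type pools, and *Arl11* 11.28 ± 0.12 and 9.27 ± 0.14 (SD, n = 3 each).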

How the data were processed

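Biotin-labelled cRNA from the LSK cells of 6 pools, 3 per genotype, was hybridized to Illumina mouse arrays of 45281 probes, 1 array per pool. The labels number the pools without saying what separates them. The paper describes them as independent samples, each pooled from individual mice. The p-values measure the spread between these pools. The authors deposited intensities that were not normalized, each with a detection p-value, and a table of 19750 probes with log2 values that they had made with the neqc function of limma (normexp background correction, offset 16, quantile normalization, log2). The methods state that probes detected in no sample were removed, but 79 probes of the table were detected in 0 pools at a detection p under 0.05 and 2448 that were detected in at least 1 pool are not in it. Running neqc again gave log2 values within 0.0256 of the deposited log2 values. The intensity headings exchange intensity and detection p within each pair of columns, so each pair was told apart by its values and tied to its pool by the array number in the labels.

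The deposited log2 values of all 19750 probes were fitted with lmFit and eBayes of limma (version 3.58.1, R 4.3.3), PU.1-deficient minus wild-type, with Benjamini-Hochberg adjustment over all probes and a threshold of 0.05. A probe counted as detected in a pool at a detection p under 0.05. Where no pool of a genotype detected it, the fold is a lower bound, the mean of the other genotype against the mean of the lowest signal of a detected probe on each array, or the probe's own where higher. Gene names came from the platform annotation: 16548 probes had 1 gene name, 9 several and 3193 none, and 0 symbols changed through Entrez ID. The script was tested on simulated data with 200 changed probes.

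The members, the pathway and marker lists and the tests were chosen with earlier results of these data known. Named genes were all members with every probe, *Spi1*, a fixed set of 12 pathway genes whatever their values, up to 4 further called genes per pathway list with the largest absolute change, up to 3 genes per marker list with the highest mean level, the most changed marker each way, and the 5 probes most like the member with the largest change. Alternatives covered normalization, background correction, offset, dim probes, a replicate block, array weights, 1 row per gene, a threshold of 0.01 and each pool left out. Precision is limited by the number of arrays, 3 per genotype. Some items of the pathway are not reported here.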

Additional observations from a re-analysis of the deposited data

How the results depend on the processing

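Over the alternatives run, *Spi1* stayed lower in PU.1-deficient LSK cells (log2 fold change -2.70 to -1.57) and *Ncf4* higher, both past the threshold in each. The 4 member probes called became 1 with scaling to equal medians, 2 at an adjusted p under 0.01 and 6 with array weights, the 15 pathway genes called became 33 with array weights and 9 at 0.01, and the 1971 probes called became 8238 with array weights and 872 at 0.01. The weights ran from 0.246 for PU.1-deficient pool 2 to 6.28 for PU.1-deficient pool 3. Leaving out 1 pool at a time gave 2 to 5 member probes, 9 to 17 pathway genes and 906 to 2117 probes called, with the lowest counts of all probes without wild-type pool 3 (906), wild-type pool 2 (957), PU.1-deficient pool 1 (1109) and PU.1-deficient pool 3 (1170). The *Rac2* minus *Rac1* difference was 0.55 to 0.79. The sign turned for *Rac1* (-0.13), *Prkcd* (-0.22), *Cdc42* (-0.0722), *Ltf* (-0.20) and *Mmp9* (-0.0670) with scaling, for *Prkcd* (-0.11), *Cdc42* (-0.0046) and *Vav1* (-0.0508) with array weights, and, with 1 pool left out, for *Prkcd* (-0.0373 to 0.106) and *Mmp9* (-0.0052 to 0.383). The cause of these changes was not tested.

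Pools of the 2 genotypes share numbers in the labels, and deviations of same-numbered pools correlated at 0.74, 0.64 and -0.16. PU.1-deficient pools 1 and 2 each correlated best with the wild-type pool of the same number. PU.1-deficient pool 3 correlated best with wild-type pool 1, at 0.19. Whether the numbers pair the pools cannot be told from these values, and the reported fit did not pair them. A replicate block gave 3255 probes, 5 member probes and 20 pathway genes called.

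Probes undetected in every wild-type pool, such as *Ncf1* ILMN_1228585, *Prkcz* and *Rhou*, are limited by detection there. Their bounds rest on the lowest detected signal of the background-corrected values. Without that correction the fitted log2 fold changes of these *Ncf1* and *Rhou* probes and of the brightest *Prkcz* probe were smaller.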
